A study of Mus musculus with 10 samples.

Results

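Mt1, Mt2, Mtf1, Slc30a1, Slc39a8 and Slc39a14 encode the metal-binding metallothioneins, the zinc-sensing transcription factor that drives them, and carriers that move zinc across the cell surface. These 6 genes, of the 54446 with a deposited count, were chosen by gene symbol from values of these libraries: the difference between the genotypes was already known. For that reason their differences are given as a description with no p, and where the text says on which side of the threshold a member lay, that too is only a description. The study sequenced RNA from primary aortic smooth muscle cells (SMC) of mice with both mutant Kit alleles W and Wv (WWv, 5 libraries) and of wild type mice (WT, 5 libraries). It asked what changes when signalling by the receptor tyrosine kinase c-Kit is impaired. In both groups the cells were freed from the aorta with collagenase and cultured to passage 2 without any further agent, as far as the labels say. The protocol names 5 mice of each genotype. It does not state which library came from which mouse, and sex, age and genetic background are not given in the sources used here.

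Metallothioneins are small proteins in which clusters of cysteines hold zinc and copper, and they buffer free zinc inside the cell. When free zinc rises, the zinc fingers of MTF-1 fill, and the factor binds metal response elements in promoters of Mt1, Mt2 and the exporter gene Slc30a1. Carriers of the ZIP family (Slc39a genes) bring zinc into the cytosol, those of the ZnT family (Slc30a genes) take it out, and glucocorticoids, oxidants and interleukin-6 are known to raise metallothionein or ZIP14 transcripts in other tissues.

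The 2 metallothionein genes lie next to each other on chromosome 8, and their coding sequences are shown because both were lower in WWv and because their likeness bears on whether reads can be assigned to one or the other. The coding sequence of Mt1 (spliced from 3 exons within chr8:94179311-94180190, plus strand) and that of Mt2 (3 exons within chr8:94172848-94173424, plus strand) are given without the stop codon, from GENCODE M21 on GRCm38, with every cysteine codon in capitals.
Mt1: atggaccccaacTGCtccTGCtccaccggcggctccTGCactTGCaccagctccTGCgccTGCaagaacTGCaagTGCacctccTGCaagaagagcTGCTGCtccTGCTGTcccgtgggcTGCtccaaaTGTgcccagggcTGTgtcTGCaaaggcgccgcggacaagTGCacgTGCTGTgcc
Mt2: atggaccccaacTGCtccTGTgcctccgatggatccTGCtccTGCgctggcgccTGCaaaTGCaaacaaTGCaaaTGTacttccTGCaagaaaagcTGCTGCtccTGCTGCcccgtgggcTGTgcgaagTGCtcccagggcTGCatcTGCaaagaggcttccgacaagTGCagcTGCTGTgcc
Each holds 61 codons, of which 20 (32.8%) encode cysteine, and all 20 stand at the same positions in both. The sequences matched at 145 of 183 bases (79.2%), and the longest stretch without a difference was 20 bases. Of 482 windows of 30 bases along the Mt2 transcript, 0 were found in the Mt1 transcript. No stretch of 30 bases of the Mt2 transcript therefore fits the Mt1 transcript in full.

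The promoters of Mt1 (chr8:94178839-94179118) and Mt2 (chr8:94172368-94172647), both on the plus strand of GRCm38.p6, are shown because the pair moved together across libraries. They come from RefSeq, run from 250 bases before the annotated start to 30 bases from the start on, and carry the metal response element core in capitals.
Mt1: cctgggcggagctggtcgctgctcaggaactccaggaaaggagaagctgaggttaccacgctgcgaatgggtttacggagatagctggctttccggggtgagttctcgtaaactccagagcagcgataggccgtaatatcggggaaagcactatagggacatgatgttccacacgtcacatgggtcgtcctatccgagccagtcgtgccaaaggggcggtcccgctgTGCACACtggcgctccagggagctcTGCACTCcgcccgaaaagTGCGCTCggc
Mt2: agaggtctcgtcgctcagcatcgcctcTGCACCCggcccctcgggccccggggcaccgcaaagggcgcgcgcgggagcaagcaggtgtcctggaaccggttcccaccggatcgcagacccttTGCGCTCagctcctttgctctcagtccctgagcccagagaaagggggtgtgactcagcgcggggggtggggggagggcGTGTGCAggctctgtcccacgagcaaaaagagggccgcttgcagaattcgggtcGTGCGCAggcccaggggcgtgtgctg
The core was searched as TGCACNC or TGCGCNC on both strands in windows that reach 50 bases past the start, and 5 of the 6 genes had such a window. Mt1 held 3 matches, at -23, 2 and 20 counted with the start as 0, and Mt2 held 4, at -223, -128, -50 and 4. Slc30a1 held 2 (chr1:191906531-191906830), Mtf1 held 0, and of the windows at the 2 starts of Slc39a8 the upstream one held 0 and the downstream one 1. Of all 32851 mouse promoter windows of this length, 25.7% held at least 1 match, 7.11% at least 2, 1.97% at least 3 and 0.517% at least 4. An antioxidant response element core (TGACNNNGC) was found once in Mt2, in Slc30a1 and at the upstream start of Slc39a8, against 12.4% of all promoters. The STAT pattern TTCNNNGAA was found in 0 of these windows and in 8.3% of all promoters. The coding start lay 222 genomic bases downstream of the annotated start in Mt1 and 230 in Mt2, so bases nearer the coding start were not searched. A match is a run of letters, not a bound site.

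**Figure D1:**
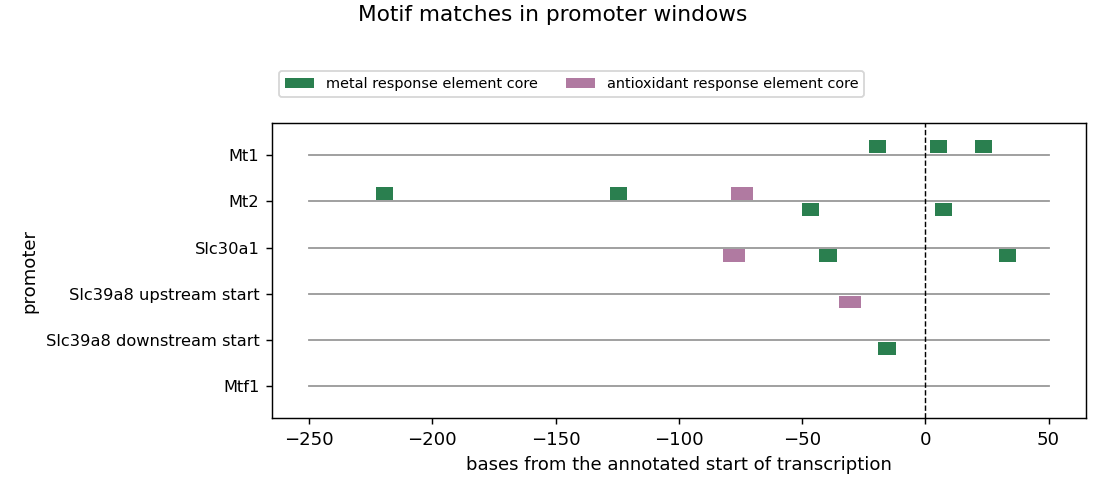
Positions of motif matches in the RefSeq promoter windows of 5 genes, in bases from the annotated start (horizontal axis), with one line for each window. Bars above a line are matches on the forward strand and bars below it on the reverse strand. The 4 metal response element cores of Mt2 spread over the window, and the 3 of Mt1 sit close to the start.

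The libraries held 42040255 to 53863661 counts, and values below are TMM-scaled CPM, a gene's count relative to its library's total. WT 2 stood apart from the other WT libraries: on the first principal component, which carried 52.5% of the variance, it lay at 20.2, among the WWv libraries (11.5 to 33.4) and away from the other WT libraries (-51.1 to -29.1). On the second component (17.3% of the variance) it lay at -42.9, apart from all other libraries of both groups (-20.2 to 23.1). Its mean log2 CPM over 20 cell cycle genes was 5.70. The range was 4.95 to 5.11 over the remaining WT libraries, and 5.42 to 5.63 over WWv. Summed smooth muscle markers, such as Acta2 and Myh11, reached 10100 to 13200 CPM in WT and 16900 to 20400 in WWv, with 6 of 8 higher in WWv. By this sum WT 2, at 10400 CPM, stood with the other WT libraries. Summed fibroblast markers reached 381 to 532 CPM in WT and 223 to 336 in WWv, with 4 of 6 lower in edgeR and in DESeq2 and 2 lower in voom. Endothelial markers summed to 232 CPM in WT 2, to 44.3 to 70.5 in WT 1 and WT 3 to WT 5 and to 65.7 to 156 in WWv, with 0 of 6 past the threshold in edgeR, also at an unadjusted p under 0.05, in DESeq2 and in voom. Macrophage markers summed to 20.4 to 40.7 CPM in WT and 20.7 to 25.6 in WWv, with 0 of 5 tested genes past the threshold in edgeR (3 lower at an unadjusted p under 0.05, 2 lower with DESeq2, 0 with voom) and Adgre1 and Ptprc below 1 CPM in every library. All 5 adipocyte markers were below 1 CPM throughout. Of 5 epithelial markers, Epcam, Krt8 and Cdh1 were below 1 CPM throughout, Krt18 ran from 0.857 to 15.8 CPM in WT and 3.91 to 12.7 CPM in WWv without passing the threshold, and the uroplakin gene Upk1b rose from 1.71 ± 1.18 to 5.81 ± 1.70 CPM (log2 difference 1.76 ± 0.40 SE, adjusted p = 0.0091 by edgeR). Kit itself stood at 3.19 to 4.91 CPM in WT and 0.928 to 3.01 CPM in WWv. Ddx3y, a gene of the Y chromosome, stood at 64.4 to 77.7 CPM in WT and 76.8 to 88.4 CPM in WWv. Xist reached at most 0.195 CPM in WT and 0.0954 CPM in WWv, so the libraries of both groups read as male. In bulk RNA, fewer cells of a type and less RNA per cell cannot be told apart.

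Of the 6 genes, 3 were lower in WWv (Mt1, Mt2 and Slc39a14), 0 were higher and 3 did not pass the threshold, an adjusted p under 0.05 in edgeR's quasi-likelihood test over all 15181 tested genes. Over those genes 28.2% passed it, 12.8% higher and 15.4% lower in WWv; the members had been picked with this contrast in view, so nothing is read from their count. Scaling by library size alone turned the split over all genes from 1940 higher and 2334 lower into 983 and 3599. The median log2 difference was -0.20 over the 6 genes and -0.01 over all genes tested. All 6 passed the filter on low counts, as described in the processing.

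Mt1 encodes metallothionein-1 (ENSMUSG00000031765.8, chr8:94179082-94180327, plus strand). It was read at 48.1, 29.4, 51.8, 53.9 and 56.9 CPM in WT 1 to WT 5 and at 19.0, 22.3, 27.4, 20.8 and 22.1 CPM in WWv 1 to WWv 5. The groups did not overlap, and WT 2, the lowest WT library, stood just above WWv 3, the highest of WWv. Mt1 was the only one of the 6 genes without overlap, against 2407 of all 15181 tested genes (15.9%). The means were 48.0 ± 10.9 and 22.3 ± 3.13 CPM (SD, n = 5 each), a log2 difference of -1.11 ± 0.16 (SE), or 2.15-fold lower in WWv. Counts behind these values ran from 844 to 2833 in a library.

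Mt2 encodes metallothionein-2, the neighbour of Mt1 (ENSMUSG00000031762.7, chr8:94172664-94173568, plus strand). Its values were 32.8, 13.2, 36.0, 34.0 and 38.6 CPM in WT 1 to WT 5 and 9.76, 11.8, 14.1, 10.1 and 12.8 CPM in WWv 1 to WWv 5. WT 2 lay inside the WWv range, and the other 4 WT libraries stood above every WWv library. Mt2 had the widest difference of the 6 genes on the log2 scale, at -1.40 ± 0.24 (SE, 2.65-fold lower in WWv), from 30.9 ± 10.1 to 11.7 ± 1.82 CPM (SD, n = 5 each). Of its 588 exon bases, 432 lie under Gm45774, a gene on the opposite strand. That gene received 74 counts in all libraries together, against 10125 for Mt2, and whether counting used strand is not given in the sources used here.

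Together Mt1 and Mt2 made up 78.9 CPM in WT, between 42.6 and 95.5 CPM, and 34.0 ± 4.86 CPM in WWv (SD over 5 libraries). The ratio of Mt1 to Mt2 was 1.47, 2.22, 1.44, 1.59 and 1.48 in WT 1 to WT 5 and 1.94, 1.89, 1.94, 2.06 and 1.73 in WWv 1 to WWv 5. Mt2 thus held a smaller part of the pair in every WWv library and in WT 2 than in the other 4 WT libraries. The remaining family members were near or at the limit of detection: Mt3, the form first found in brain, averaged 0.118 ± 0.0552 CPM in WT and 0.0593 ± 0.0773 CPM in WWv, on 0 to 9 counts a library. Mt4, known from stratified epithelium, had 0 counts in all 10 libraries, which allows a level of up to 0.0064 CPM over them (3 counts, counting error only).

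Slc39a14 encodes ZIP14, an importer of zinc, manganese and iron (ENSMUSG00000022094.15, chr14:70303469-70351425, minus strand). It stood at 120, 80.8, 135, 135 and 127 CPM in WT 1 to WT 5 and at 79.4, 78.1, 89.4, 81.1 and 88.7 CPM in WWv 1 to WWv 5. As with Mt2, WT 2 lay inside the WWv range and the other WT libraries above it. The log2 difference was -0.52 ± 0.12 (SE, 1.43-fold lower in WWv), from means of 120 ± 22.5 and 83.3 ± 5.31 CPM (SD, n = 5 each).

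Slc39a8 encodes ZIP8, the closest relative of ZIP14 and likewise a carrier of zinc and manganese (ENSMUSG00000053897.15, chr3:135825279-135888572, plus strand). Its values were 7.03, 7.87, 7.31, 7.06 and 7.07 CPM in WT 1 to WT 5 and 7.53, 8.29, 8.92, 9.34 and 8.13 CPM in WWv 1 to WWv 5. The groups met in a single pair, with WWv 1 below WT 2. The log2 difference of 0.22 ± 0.08 (SE) was in the other direction from that of Slc39a14 and did not pass the threshold over all genes. It passed when WT 2 was left out (0.25 ± 0.08), when WWv 1 was left out, when both were, and with DESeq2 on all libraries.

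Slc30a1 encodes ZnT1, the zinc exporter of the cell surface (ENSMUSG00000037434.7, chr1:191906767-191913247, plus strand). It stood at 18.1, 13.6, 17.3, 17.3 and 13.8 CPM in WT 1 to WT 5 and at 17.4, 17.4, 18.5, 16.1 and 18.4 CPM in WWv 1 to WWv 5. WT 2 and WT 5 were low and the other 8 libraries were close to each other. The difference was 0.13 ± 0.09 on the log2 scale (SE) and did not pass the threshold. Mtf1, the gene of MTF-1 itself (ENSMUSG00000028890.13, chr4:124802104-124849800, plus strand), was read at 26.8, 30.2, 29.5, 25.5 and 29.5 CPM in WT 1 to WT 5 and at 31.1, 31.4, 33.3, 28.7 and 28.5 CPM in WWv 1 to WWv 5. The groups overlapped, with a log2 difference of 0.11 ± 0.06 (SE) that did not pass the threshold. Both genes share some exon bases with a gene on the opposite strand, 468 of 5244 in Slc30a1 (with 1700034H15Rik) and 721 of 8907 in Mtf1 (with 1110065P20Rik). In all libraries together 1700034H15Rik received 120 counts against 7898 for Slc30a1, and 1110065P20Rik 8063 against 13747 for Mtf1.

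**Figure D2:**
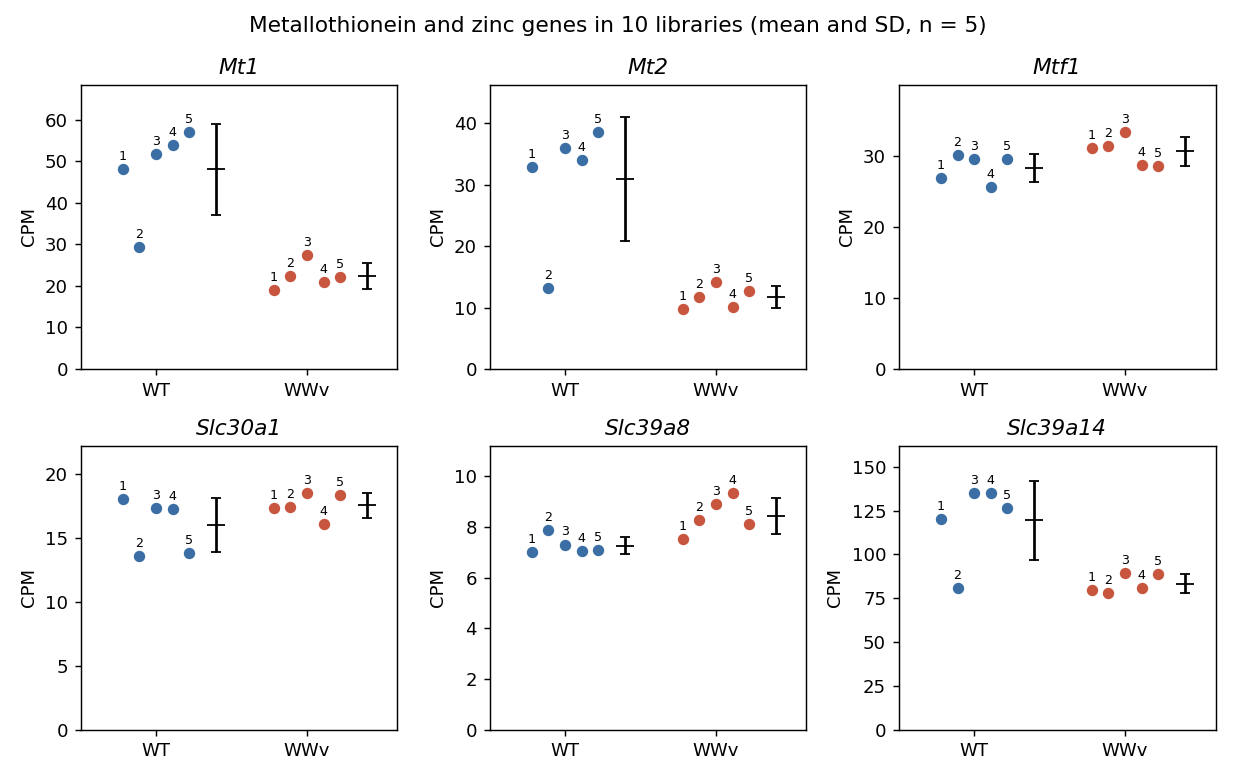
TMM-scaled CPM of each of the 6 genes (vertical axes, each from 0) in the 5 WT and 5 WWv libraries. Points are libraries and bars are the mean with SD. WT 2 is the lowest WT library for Mt1, Mt2 and Slc39a14, and for the last 2 it lies within the WWv range.

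WT 2 was the lowest WT library for Mt1, Mt2 and Slc39a14. Without it the log2 differences were -1.24 ± 0.09 for Mt1, -1.59 ± 0.10 for Mt2 and -0.63 ± 0.06 for Slc39a14 (SE). With each of the 10 libraries left out in turn they ran from -1.24 to -1.04, from -1.59 to -1.31 and from -0.63 to -0.47. With cell cycle gene level added to the model they were -0.63, -0.60 and -0.15, which put Mt2 and Slc39a14 on the other side of the threshold. The part of the fibroblast and smooth muscle markers, which also separated the groups, was not tested.

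Levels were compared between genes as CPM per kilobase of the principal transcript. In WT, Mt1 led the members at 87.5 ± 19.9, then Mt2 at 60.5 ± 19.8 and Slc39a14 at 24.3 ± 4.57 (SD, n = 5 each). In WWv the same genes stood at 40.6 ± 5.70, 22.9 ± 3.55 and 16.9 ± 1.08. Mtf1 (3.71 in WT and 4.01 in WWv), Slc30a1 (3.06 and 3.35) and Slc39a8 (2.06 and 2.39) were the lowest, in that order in both genotypes. Mt1 and Mt2 overlapped in their spread in WT but not in WWv, and their order depends on the length used: over the union of annotated exons Mt1 stood at 38.5 and Mt2 at 52.6 CPM per kilobase in WT.

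Among the other zinc carriers, Slc39a1 (ZIP1, an importer at the cell surface) had 66.3 CPM per kilobase in WT and 62.2 in WWv, and Slc39a13 (ZIP13, of the secretory pathway and known for its role in connective tissue) had 61.5 and 57.4. Both stood near Mt2 in WT and above Mt1 in WWv. Summed over the 12 Slc39a genes tested, importers of all membranes reached 219 ± 11.3 CPM per kilobase in WT and 212 ± 5.26 in the WWv libraries (SD, n = 5 each). The 6 Slc30a genes tested reached 57.1 ± 0.823 and 58.2 ± 2.01. Slc39a14 made up 11.0 ± 1.64% of the Slc39a sum in WT, with 8.26% in WT 2, and 7.99 ± 0.427% in WWv.

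**Figure D3:**
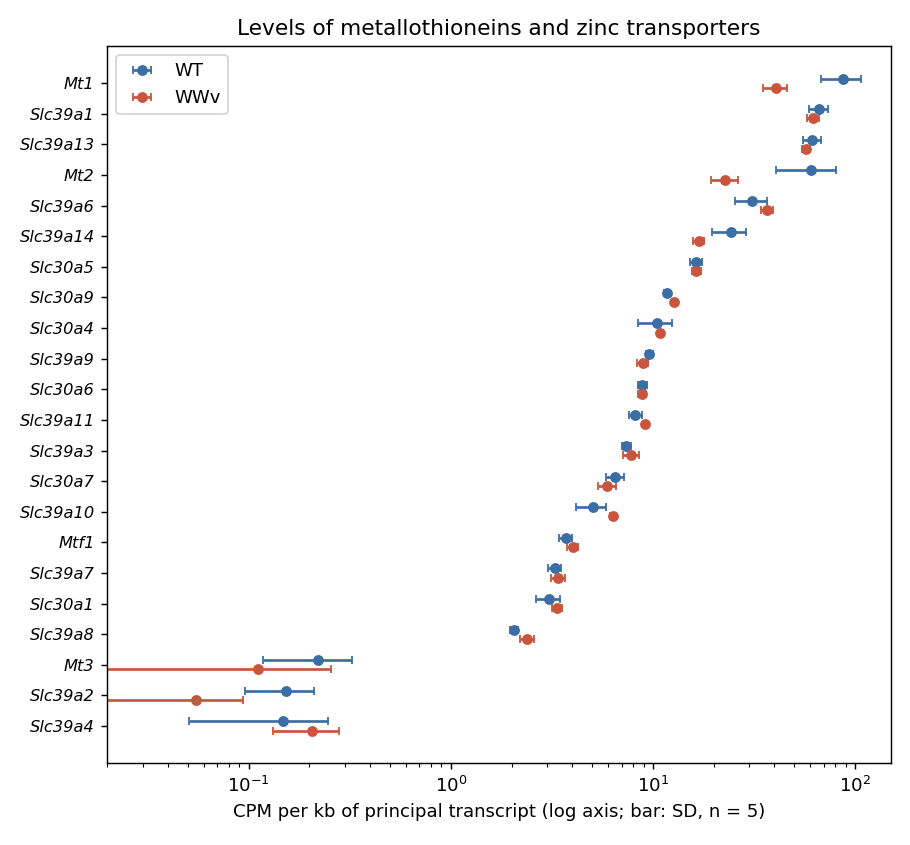
Mean CPM per kilobase of principal transcript (log axis) for metallothioneins and zinc carriers in WT and WWv, with SD over 5 libraries as bars, which end at the edge where they reach past it. Mt1, Mt2, Slc39a1 and Slc39a13 lead in WT, and Mtf1, Slc30a1 and Slc39a8 are the lowest of the 6 members in both genotypes.

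The 21 other zinc carrier genes, all those of both families that are not members, mostly differed little between the genotypes. Of 15 tested, 2 rose, 0 fell and 13 did not pass the threshold, with a median log2 difference of 0.05. The shares over all tested genes were 12.8% higher and 15.4% lower. At an unadjusted p under 0.05 edgeR gave 1 lower carrier, DESeq2 gave 1 after adjustment and voom 0. Slc39a10, encoding the importer ZIP10, rose from 27.7 ± 4.73 to 35.0 ± 1.12 CPM (SD, n = 5 each), a log2 difference of 0.34 ± 0.10 (SE, adjusted p = 0.0295 by edgeR), with 5 of 5 WWv libraries above the WT mean. Slc30a9, encoding a carrier linked to mitochondrial zinc, rose from 67.3 ± 2.40 to 73.0 ± 1.83 CPM, a log2 difference of 0.12 ± 0.04 (SE, adjusted p = 0.0481 by edgeR). Neither call was firm. That of Slc39a10 was lost on leaving out any one library other than WT 1 or WT 2, and that of Slc30a9 on leaving out any one other than WT 2. Scaling by library size alone ended both. A total of 8 carriers were below 1 CPM in every library: Slc30a2, Slc30a3, Slc30a8, Slc30a10, Slc39a2, Slc39a4, Slc39a5 and Slc39a12.

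Leaving out WT 2 changed this picture most, to 5 higher and 4 lower of the 15. In that fit 7127 of all 15423 tested genes passed. The higher carriers were then Slc39a10 (log2 difference 0.43), Slc39a6 (0.36), Slc39a11 (0.19), Slc30a4 (0.18) and Slc30a9 (0.10). Slc39a6 encodes the importer ZIP6, the close relative of ZIP10. The lower ones were Slc39a2 (-1.55), Slc30a7 (-0.19), Slc39a13 (-0.16) and Slc39a1 (-0.15); these names were taken after their values were seen.

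**Figure D4:**
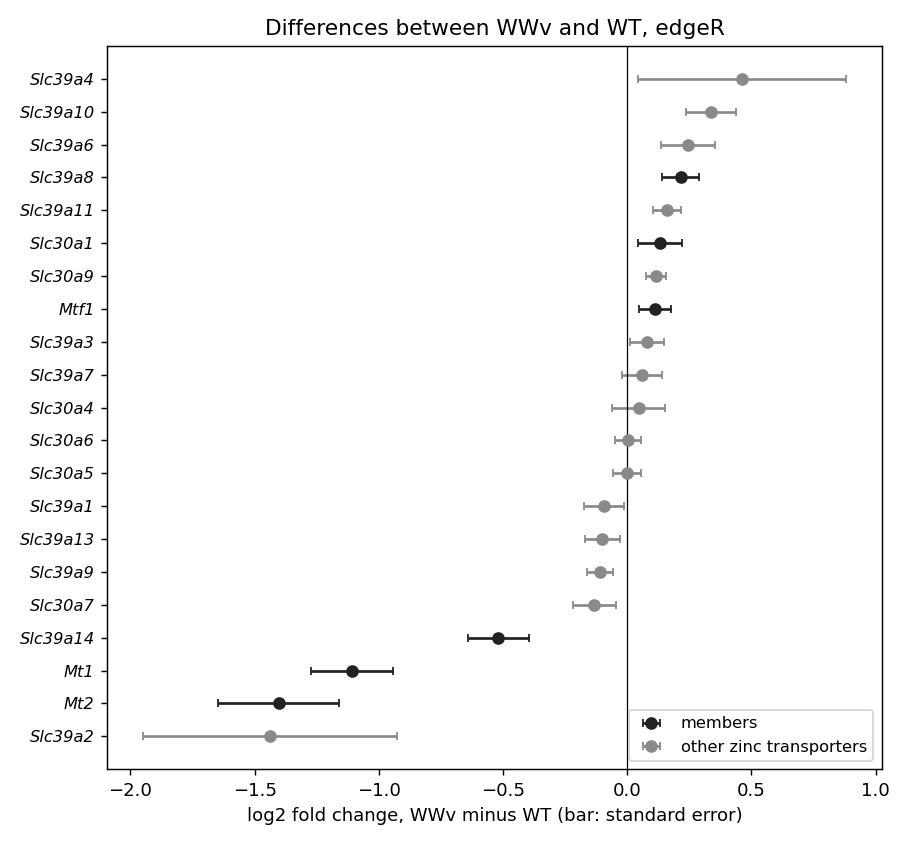
Log2 difference WWv minus WT with SE (horizontal axis) for the 6 members and the other zinc carriers tested. Mt2, Mt1 and Slc39a14 lie at -1.40, -1.11 and -0.52, while most other carriers lie close to 0, with Slc39a10 at 0.34. Slc39a2, which was below 1 CPM in every library, lies at -1.44.

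Within a genotype, Mt1 and Mt2 varied together across libraries. Covariation of the members was examined on deviations of log2 CPM from the group mean over all 10 libraries, with 15 pairs of members. Group means were thus removed, but WT 2 lay among the WWv libraries on the first principal component. Its deviations run along the contrast from which the members were picked, so the p-values below are not free of that choice. How often pairs of other genes reach such an r was not computed. For Mt1 and Mt2 Pearson's r was 0.97 (exact permutation within groups, two-sided, p = 0.000347, adjusted 0.0052) and Spearman's rho 0.927 (p = 0.00187, adjusted 0.028, exact permutation). Without the 2 libraries farthest from the median, WT 2 and WWv 3, r was 0.937. For Mt2 and Slc39a14 r was 0.953 (exact permutation p = 0.0119, adjusted 0.0665), rho was 0.891 (p = 0.00632, adjusted 0.0474, exact permutation), and r was 0.734 without WT 2 and WWv 1. For Mt1 and Slc39a14 r was 0.919 (exact permutation p = 0.0133, adjusted 0.0665), rho was 0.782 (p = 0.0167, adjusted 0.0835, exact permutation), and r was 0.762 without WT 2 and WWv 3. Only for the Mt1 and Mt2 pair was the adjusted permutation p under 0.05 by both measures. Given how the members were picked, this too is a description and not a test of a link between them. The other 12 pairs had r from -0.368 (Mtf1 and Slc30a1) to 0.631 (Slc30a1 and Slc39a14), and none of them passed after adjustment.

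The genes whose deviations were most like those of the members were read from 10270 tested genes with a mean of at least 5 CPM, over the same 10 libraries, which share the low values of WT 2. For Mt1 they were Luzp1 (r = 0.983), Rb1cc1 (0.974), Fbxo32 (0.974), Mt2 (0.97) and Mgat3 (0.966). For Mt2 they were Scel (0.988), Zfp799 (0.978), Mt1 (0.97), Col5a1 (0.97) and Il6 (0.969), so the metallothioneins were each among the 5 most like the other. For Slc39a14 they were B4galt1 (0.973), Rora (0.962), Osmr (0.962), Mob3c (0.96) and Zfp799 (0.959). Without WT 2 the r of these genes ran from 0.824 (Rora) to 0.951 (Luzp1). For Slc39a8 the nearest were Dhdds (0.915), Lsm10 (0.91), Prcc (0.893), Pmaip1 (0.872) and Evi5 (0.862), and for Slc30a1 Slc4a4 (0.955), Pex7 (0.937), Dpp7 (0.931), Arsk (0.92) and H6pd (0.914).

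**Figure D5:**
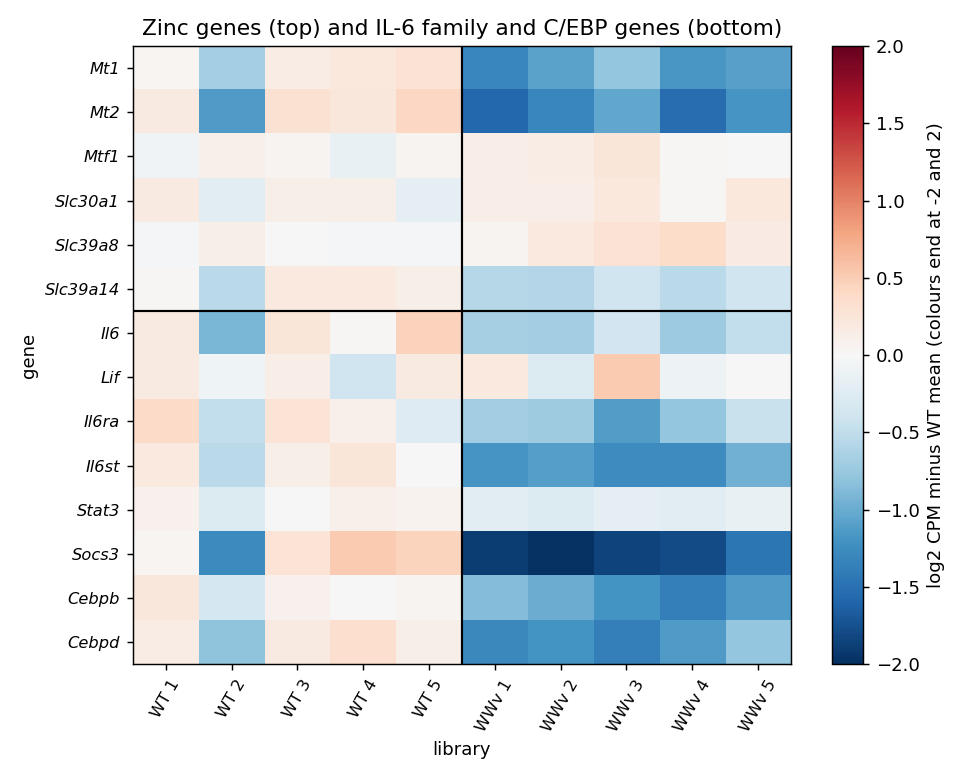
Log2 CPM minus the WT mean (colour) of the 6 members (top) and the 8 genes of the interleukin-6 and C/EBP list (bottom), with one column for each library. WT 2 lies below the WT mean for Mt1, Mt2, Slc39a14 and the lower block, as the WWv libraries do for all of these but Lif.

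Other genes reported as targets of MTF-1 did not all move in one direction. The list does not sort targets that MTF-1 raises from targets that it lowers, so its activity is not read from them. Of 6, 2 rose, 1 fell and 3 did not pass the threshold, with a median log2 difference of 0.16. Among all tested genes 12.8% were higher and 15.4% lower. Csrp1, encoding a LIM protein of smooth muscle, rose from 531 ± 88.2 to 735 ± 76.6 CPM (log2 difference 0.47 ± 0.11 SE, adjusted p = 0.011 by edgeR), and Slc39a10 is described above. Ndrg1, a gene also known as a hypoxia and stress response gene, fell from 52.9 ± 24.2 to 21.1 ± 5.28 CPM (log2 difference -1.33 ± 0.31 SE, adjusted p = 0.0107 by edgeR). Adding the cell cycle score to the model ended its call and that of Slc39a10.

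Genes of copper handling are given because metallothioneins also bind copper. Of 11, 0 rose, 3 fell and 8 did not pass the threshold, with a median log2 difference of -0.07. The share lower over all tested genes was 15.4%, and the share higher 12.8%. Cp, encoding the copper-carrying ferroxidase ceruloplasmin, fell from 90.8 ± 47.3 to 21.3 ± 11.5 CPM (log2 difference -2.09 ± 0.53 SE, adjusted p = 0.015 by edgeR), with WT 2 at the low end of WT at 17.7 CPM. With cell cycle gene level in the model the log2 difference of Cp was -0.51, without a call (adjusted p = 0.654 by edgeR), and the call of Atp7b was lost as well. Cox17, the copper chaperone of cytochrome c oxidase, fell without overlap, from 3.94 to 1.32 CPM on average (log2 difference -1.58 ± 0.23 SE, adjusted p = 0.00124 by edgeR). Atp7b, a copper-exporting ATPase, fell from 0.411 to 0.165 CPM (log2 difference -1.27 ± 0.41 SE, adjusted p = 0.0402 by edgeR), and its call was lost on leaving out any one of 7 libraries (WT 1, WT 3, WT 4, WT 5, WWv 1, WWv 2 and WWv 4). Cp and Cox17 share exon bases with other genes (Hps3 with 5414 counts in all libraries and Gm21987 with 1). The counting of shared bases is not known from the labels.

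Genes of iron and manganese transport and storage are given because ZIP14 and ZIP8 also carry these metals. Of 9, 0 rose, 3 fell and 6 did not pass the threshold (median log2 difference -0.08), and the groups did not overlap for the 3 that fell. Among all tested genes 12.8% were higher, 15.4% were lower and 15.9% had groups without overlap. Slc40a1, encoding the iron exporter ferroportin, fell from 0.949 to 0.260 CPM (log2 difference -1.85 ± 0.33 SE, adjusted p = 0.003 by edgeR). Fth1, the ferritin heavy chain that stores iron, fell from 1579 ± 70.3 to 1239 ± 138 CPM (log2 difference -0.35 ± 0.08 SE, adjusted p = 0.00793 by edgeR). Slc11a2, encoding the divalent metal importer DMT1, fell from 32.3 to 28.9 CPM (log2 difference -0.16 ± 0.05 SE, adjusted p = 0.0421 by edgeR). Cell cycle gene level in the model ended the call of Fth1 (log2 difference -0.27, adjusted p = 0.0888 by edgeR), and the call of Slc11a2 was lost on leaving out any one library other than WT 2 or WT 5.

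Lists of genes tied to known inducers of metallothioneins or ZIP14 (interleukin-6, glucocorticoids and oxidants) gave different directions. They hold mostly receptors, factors and response genes, so the level of an inducer is not read from them. In the list of the interleukin-6 family and C/EBP factors, 7 of 8 genes fell, 0 rose and only Lif did not pass the threshold (log2 difference 0.08), with a median of -0.94 over the list. Over all tested genes 15.4% were lower. This list, like the other lists, was chosen with earlier results of these data known, so its count is a description. The adjusted p-values of listed genes are not free of that choice either. Socs3, a feedback gene of interleukin-6 signalling, was read at 47.5, 19.0, 56.0, 66.5 and 63.1 CPM in WT 1 to WT 5 and at 12.4, 11.7, 12.9, 13.4 and 17.0 CPM in WWv 1 to WWv 5. WT 2 was again close to WWv, without overlap, and the log2 difference was -1.90 ± 0.28 (SE, adjusted p = 0.00128 by edgeR). Cebpd, a C/EBP transcription factor, fell from 179 ± 46.2 to 78.7 ± 13.5 CPM (log2 difference -1.19 ± 0.19 SE, adjusted p = 0.00188 by edgeR). Il6st, encoding the shared receptor chain gp130, fell from 1473 ± 286 to 654 ± 56.6 CPM without overlap (log2 difference -1.17 ± 0.13 SE, adjusted p = 0.000423 by edgeR). The other 4 that fell were Cebpb, Il6ra, Il6 and Stat3. Cebpd, Cebpb, Il6ra and Stat3 each share exon bases with a gene on the opposite strand. In all libraries Spidr held 11710 counts against 61637 for Cebpd, and Tmem189 held 17117 against 34426 for Cebpb. The calls of Il6 and Stat3 were lost on leaving out any one of most libraries, 7 for Il6 (all but WT 2, WWv 3 and WWv 5) and 8 for Stat3 (all but WT 2 and WWv 5). With cell cycle gene level in the model 4 of the 7 calls were left, the log2 difference being -0.93 for Socs3 and -0.65 for Cebpd. The mean log2 CPM over the list was 6.07 in WT 2, 6.78 to 6.85 in the remaining WT cultures and 5.74 to 5.99 in WWv, so WT 2 was the WT library nearest to WWv, as it was for Mt2 and Slc39a14. In none of the lists of copper, iron and manganese, NRF2 and interleukin-6 genes was any gene higher at an unadjusted p under 0.05 in edgeR, or after adjustment in DESeq2 or voom. Whether the interleukin-6 and C/EBP genes bear on the members' levels was not tested.

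In the glucocorticoid response list, which also holds the receptor gene Nr3c1, 3 of 7 tested genes rose, 1 fell and 3 did not pass the threshold (median log2 difference 0.25). The shares over all tested genes were 12.8% higher and 15.4% lower. The strength of the response is not read from the count of this list. Dusp1, a phosphatase of MAP kinases, rose from 115 ± 10.8 to 186 ± 27.0 CPM (log2 difference 0.70 ± 0.10 SE, adjusted p = 0.00111 by edgeR). Nr3c1, the glucocorticoid receptor gene, rose with a log2 difference of 0.40 ± 0.08 (SE, adjusted p = 0.00394 by edgeR). With cell cycle gene level in the model the calls of Nr3c1 (log2 difference 0.33, adjusted p = 0.0602 by edgeR), Fkbp5 and Sgk1 were lost. The third was Fkbp5, named because the count is small; its call was lost without WWv 2 or without WWv 3. Sgk1, a kinase gene of the same response, fell (log2 difference -0.41 ± 0.14 SE, adjusted p = 0.0432 by edgeR), and its call was lost without any one of WT 1, WT 3 and the 5 WWv libraries.

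In the list of NRF2 targets, genes of the oxidant response, the median log2 difference was 0.02. Of 8, 0 rose and 1 fell, where 12.8% of all tested genes were higher and 15.4% lower. The gene that fell was G6pdx, encoding the NADPH-producing glucose-6-phosphate dehydrogenase. It went from 161 to 91.0 CPM (log2 difference -0.82 ± 0.10 SE, adjusted p = 0.000676 by edgeR). G6pdx shares 418 of 3080 exon bases with Ikbkg on the opposite strand, which held 33767 counts in all libraries against 59672. Hmox1, encoding haem oxygenase 1 and like Mt1 known to respond to cadmium, stood at 450 ± 221 CPM in WT and 406 ± 93.8 CPM in WWv and did not pass the threshold. Without WT 2, 2 genes of this list rose and 1 fell.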

How the data were processed

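RNA from 10 libraries of cultured aortic smooth muscle cells was analysed, 5 of each genotype, grouped by the labels. The authors deposited raw counts per gene, in whole numbers. Per the submitters' processing notes, bcl2fastq 2.17, Trim Galore 0.4.3 and STAR 2.5.2a were used with mm10, and per the labels' protocols libraries came from a Nugen Universal Plus mRNA-Seq preparation. The counting tool, its strand setting and the annotation release are not given in the sources used here, so genes that overlap others are uncertain. Symbols and positions came from GENCODE M21 on GRCm38, which mm10 names: 54409 of 54446 IDs matched without their version, and the 37 others held 0.0026% of counts.

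WWv was compared with WT in edgeR 4.0.16 (R 4.3.3) by the two-sided quasi-likelihood test, with TMM scaling, filterByExpr at a minimum count of 10 and Benjamini-Hochberg adjustment over 15181 genes. A gene passed at an adjusted p under 0.05, and fold changes are WWv minus WT. A total of 4274 genes passed, and 6236 had an unadjusted p under 0.05. Log2 CPM used a prior count of 2. The procedure was tested on simulated data. Alternatives were other scalings and filters, robust dispersions, DESeq2 1.42.0, voom of limma 3.58.1, a replicate block, a cell cycle covariate, and each library left out. The p-values measure the spread between these libraries.

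The members and lists were chosen with earlier results of these data known, and the marker lists and alternatives likewise. The p-values printed for genes of these lists are therefore not free of that choice. Named were the 6 members, of each other list up to 3 passing genes, by size of change, or where none passed the one of smallest p, and the 5 genes most correlated with each of 5 members. Other genes, such as Slc39a1, Slc39a13, Hmox1, Fkbp5, Cebpb and Lif, were named after their values were seen.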

Additional observations from a re-analysis of the deposited data

Results flagged for a closer look

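In 46 groups of 5 libraries, one for each named gene and genotype, the highest and lowest library was compared with the rest, and 4 stood apart by Dixon's criterion at the 95% level (a gap above 0.71 of the range). Chance flags about 1 in 20 groups. Mt2 in WT 2 was the lowest of WT at 13.2 CPM, against 32.8 to 38.6 CPM in the other 4 (gap 0.774 of the range). Slc39a14 in WT 2 was the lowest of WT at 80.8 CPM, against 120 to 135 CPM (0.721). Cebpd, a C/EBP factor gene, was likewise lowest in WT 2 at 99.3 CPM, against 189 to 219 CPM (0.75). Fth1, the ferritin heavy chain, was highest in WWv 1 at 1480 CPM, against 1150 to 1220 CPM in the other WWv libraries (0.773).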

How the results depend on the processing

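The 6 members kept the direction of their difference under all 21 alternatives. With cell cycle gene level as a covariate the log2 differences were -0.63 for Mt1, -0.60 for Mt2 and -0.15 for Slc39a14, and 1 member was lower in place of 3. Over all genes that covariate left 1696 calls (952 higher, 744 lower), and it left the lower counts at 1 for zinc carriers, 0 for MTF-1 targets, 1 for copper, 2 for iron, 0 for glucocorticoid and 4 for interleukin-6 genes, and the higher counts at 1 for zinc carriers, 1 for MTF-1 targets and 1 for glucocorticoid genes. Library size alone gave 983 higher and 3599 lower over all genes, 0 higher and 2 lower zinc carriers, 1 higher and 2 lower MTF-1 targets and 2 lower glucocorticoid genes. Without both WT 2 and WWv 1 there were 7111 calls (3361 higher, 3750 lower), 1 higher member, 4 higher and 3 lower zinc carriers, 2 lower MTF-1 targets, 1 higher copper gene and 1 higher NRF2 target. DESeq2 gave 1 higher member and 1 lower zinc carrier. Upper quartile scaling, no filter on low counts, a filter at 1 CPM and limma-voom each left 1 higher zinc carrier, and voom left 0 lower glucocorticoid genes. Cell cycle gene level was 4.95 to 5.11 in the WT libraries other than WT 2 and 5.42 to 5.63 in WWv. Apart from WT 2 (5.70) it thus separated the genotypes, so its part and that of genotype can hardly be told apart. The fit with this covariate was not run without WT 2. The cause of these shifts was not tested.

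With each library left out in turn, calls over all genes ran from 3013 to 7127 (1286 to 3507 higher, 1721 to 3620 lower), the highest without WT 2. Higher counts ran from 0 to 1 for members, 0 to 5 for zinc carriers, 1 to 3 for MTF-1 targets, 0 to 1 for copper, 0 to 1 for iron and 0 to 2 for NRF2 genes. Lower counts ran from 0 to 4 for zinc carriers, 1 to 2 for MTF-1 targets, 2 to 3 for copper, 2 to 4 for iron, 0 to 2 for glucocorticoid and 5 to 7 for interleukin-6 genes.

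Libraries of the 2 genotypes share the numbers 1 to 5, but same-numbered libraries did not deviate together (correlations -0.092, -0.0129, 0.0368, -0.0712 and 0.308), so the numbers were not taken as pairs; number 5 alone correlated best with its own number from the WT side. With the replicate block 3636 genes passed, against 4274 without it, 1 zinc carrier was higher and 0 glucocorticoid genes were lower. Leaving out the 2 libraries farthest from the median turned the sign of r for Mt1 with Mtf1 (to 0.0737), Mt1 with Slc30a1 (to -0.00762), Mt1 with Slc39a8 (to 0.126), Mt2 with Mtf1 (to 0.452) and Slc39a8 with Slc39a14 (to 0.47). At least 2 metal response element cores, in place of 1, were held by 7.11% of promoters. Depth limits Mt3, Mt4 and the carriers below 1 CPM, for which a difference may not be detectable.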
